A study of Arabidopsis thaliana with 39 samples.

Results

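The nuclear genes of the photosynthetic light reactions were followed through a time course of glutamate, urea and salicylic acid (SA, a plant defence hormone) in Arabidopsis thaliana seedlings. The members were 49 loci listed by identifier for the proteins they encode, and all 49 were present among the 20001 genes of the deposited table. They comprise 9 genes of the major light-harvesting antenna of photosystem II (LHCB1, LHCB2 and LHCB3), 5 of its minor antenna (LHCB4 to LHCB6), 6 of the photosystem I antenna (LHCA), 12 of the photosystem I core (PSA), 10 of photosystem II (PSB), 3 of the electron carriers (PETC, PETE1 and PETE2), and 4 of the ATP synthase and ferredoxin-NADP reductase (ATPC1, ATPD, FNR1 and FNR2). Wild-type Col-0 seedlings aged 14 days, raised in liquid culture with sucrose under continuous light at 23 °C, received 20 mM L-glutamate (L-Glu), 20 mM urea or 1 mM SA and were harvested after 6, 12, 24 or 48 h. A water-treated group (mock) was taken at 0 h. Each of the 13 groups had 3 libraries, 39 in all, and the labels do not say whether these came from separate cultures, so errors and p-values measure the spread between libraries, which may be technical. Urea and L-Glu were given at the same dose, SA at another. Water-treated seedlings older than this were not analysed here, so the effects of urea and of time in culture cannot be told apart.

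In the light reactions, antenna proteins that bind chlorophyll pass excitation to photosystems I and II. Photosystem II takes electrons from water with the help of the oxygen-evolving complex (PSBO, PSBP and PSBQ), the cytochrome b6f complex and plastocyanin carry them to photosystem I, and ferredoxin-NADP reductase uses them to make NADPH, while the proton gradient drives ATP synthase. The reaction-centre proteins themselves are encoded in the plastid genome. The nuclear genes considered here encode the surrounding subunits and antennae, and as a set they are known for high expression in green tissue, induction by light and control by GOLDEN2-LIKE (GLK) transcription factors and by signals from the plastid.

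Values are the authors' normalized values, made with a scaling that the sources used here do not give. They summed to between 2445645 and 5886170 per library with library medians of 46.4 to 56.9, and depth is unknown. Shoot and root markers were both present in mock seedlings, where the summed values of 8 epidermis and guard cell genes were 1445 to 1826 and those of 12 root genes 5469 to 5954. Most of the root sum was the root beta-glucosidase gene PYK10, with a mock mean of 5393 ± 235 (SD, n = 3). The number of genes listed at 0 ran from 0 to 657 per library and differed between replicates in most groups, L-Glu at 48 h among them, where replicate 2 had 443 and replicates 1 and 3 had 0. That library also had the lowest median member value of its group, 53.5 against 79.4 and 73. Replicates of urea at 12 h were also uneven for these genes, which held 6.82%, 5.34% and 8.76% of all values, and so were those of SA at 12 h, with 4.37%, 4.05% and 6.39%. In both groups replicate 2 was lowest and replicate 3 highest.

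In mock seedlings the 49 genes held 6.31% to 7.25% of all values in a library. With L-Glu this share was 4.89% to 5.78% at 6 h, 2.03% to 2.33% at 12 h, 0.156% to 0.230% at 24 h and 0.0907% to 0.148% at 48 h. With urea it was 6.13% to 6.90% at 6 h and 3.02% to 3.34% at 48 h, and with SA 4.94% to 5.46% and 2.28% to 2.78%. The L-Glu libraries of 12, 24 and 48 h therefore lay below every urea and SA library of their time, without overlap. The L-Glu shares at 12, 24 and 48 h are taken of larger totals than those of urea. All values summed to 3682591 to 3936728 in the L-Glu libraries of 12 h, 5278622 to 5886170 at 24 h and 3197324 to 4090399 at 48 h. In the urea libraries of these times they summed to 2445645 to 2795168.

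**Figure D1:**
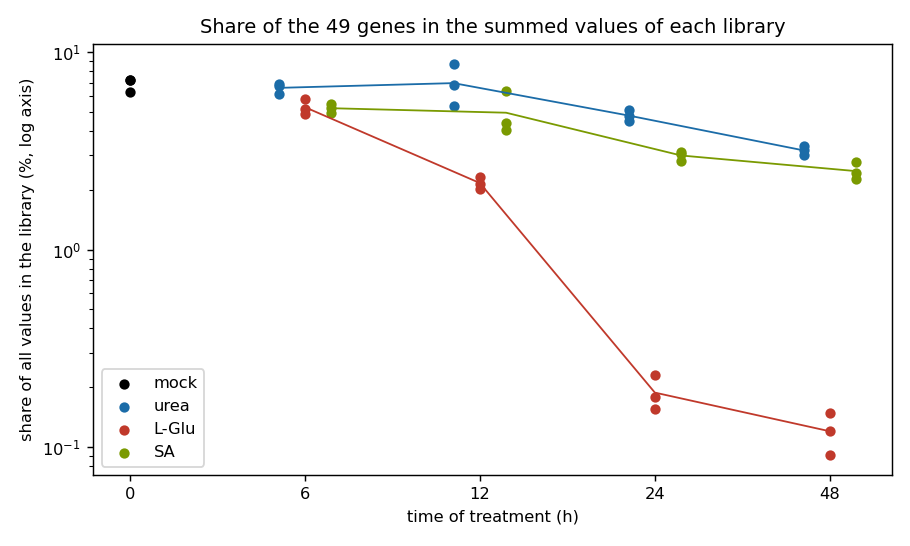
Share of the 49 genes in the summed normalized values of each library (percent, log axis) against hours of treatment, 3 points per group and a line through the group means. L-Glu libraries fall from 4.89% to 5.78% at 6 h to 0.0907% to 0.148% at 48 h, while urea libraries end at 3.02% to 3.34% and SA libraries at 2.28% to 2.78%.

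L-Glu against urea asks what glutamate did beyond the same dose of another nitrogen compound. At 6 h the members were mostly somewhat below urea but 1 passed the test, at 12 h most were lower, and at 24 and 48 h all 49 were lower, in every subgroup. A median member stood at 80.4% of its urea mean at 6 h, 41.9% at 12 h, 8.73% at 24 h and 5.45% at 48 h. Differences were tested with limma on log2(value + 1) with Benjamini-Hochberg adjustment over all genes, and a gene is called below an adjusted p of 0.05. At 6 h 1 member was called lower, PSBO2, and none higher, when 3.15% of all genes were called lower. The median difference was -0.31 on the log2 scale and 47 of the 49 differences were below 0, while quantile normalization gave a median of -0.15, against -0.10 for all genes, with 36 below 0. In the values as deposited 22 members had every L-Glu replicate below every urea replicate, against 13.7% of all genes. At 12 h 44 members were lower and none higher (21.9% of all genes were lower), with a median of -1.20. At 24 h all 49 were lower (31.3% of all genes), with a median of -3.54, and at 48 h all 49 again (27.6% of all genes), with a median of -4.27 and a range from -5.94 for PSAN to -2.45 for PSAH1. In both of the later comparisons every L-Glu replicate was below every urea replicate for each member. The same held for 32.8% of all genes at 24 h and 27.5% at 48 h. The median of all genes lay between -0.10 and 0.00 at these times. Averaged over the times, all 49 were lower (36.4% of all genes lower, 33.0% higher), with differences from -3.25 for PSAN to -1.29 for PETE1. Without L-Glu 48 h replicate 2 all 49 were still called lower at 48 h. The single call at 6 h was lost without urea replicate 2 or 3 or L-Glu replicate 1 or 3 of that time, and 2 members were called without L-Glu replicate 2. Scaling every library to the same total moved the median of all genes to -1.10 at 24 h, the members' median to -4.60, and left all 49 called. In whole seedlings, fewer green cells and less of these RNAs per cell cannot be told apart.

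**Figure D2:**
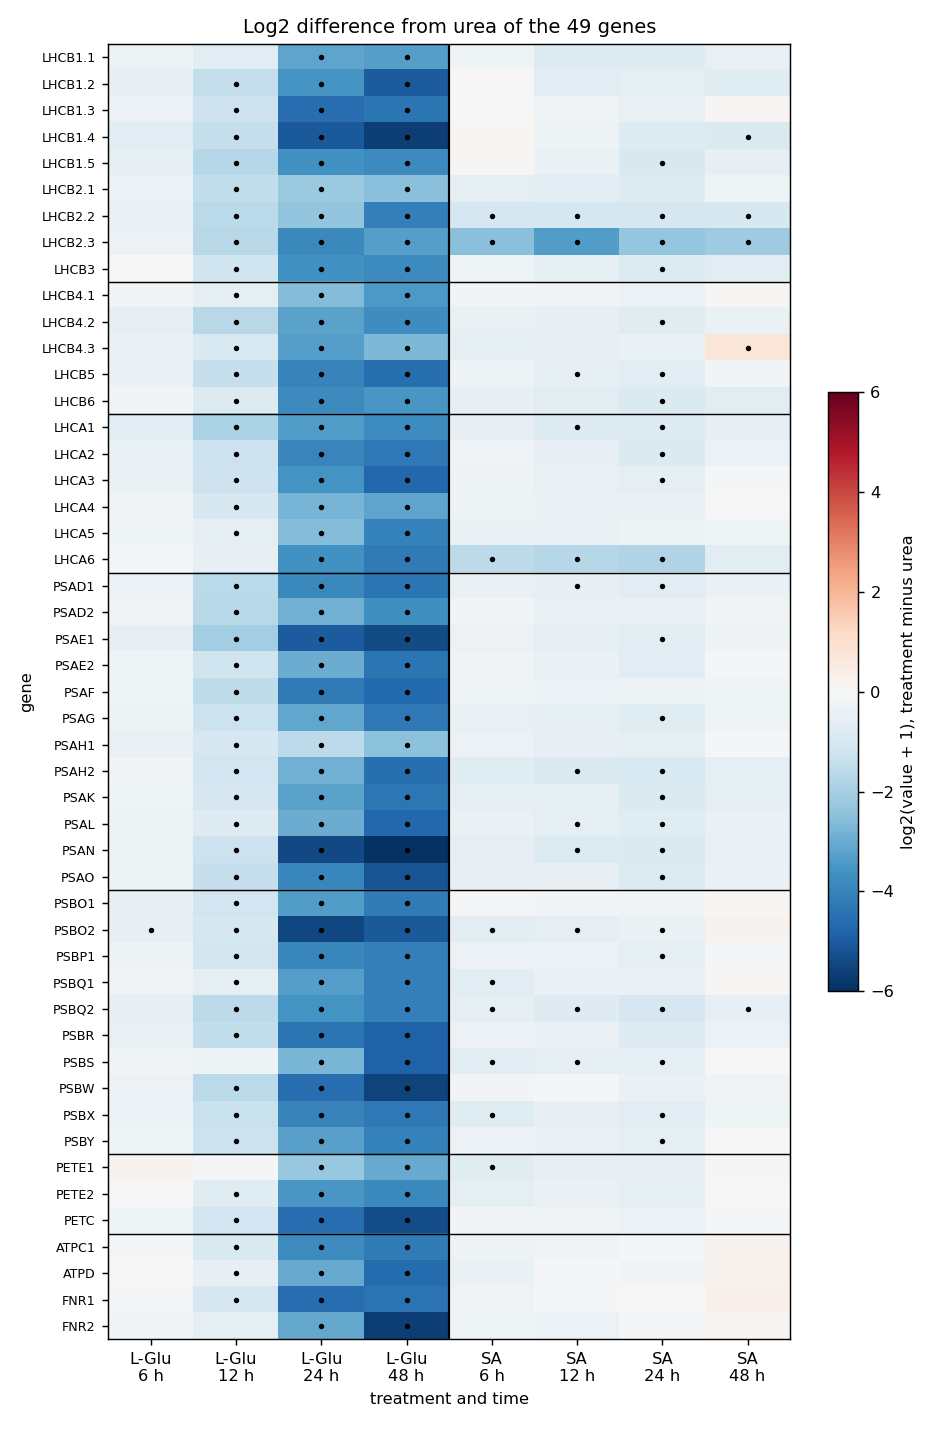
Difference from urea of each of the 49 genes (rows, grouped by subgroup with black lines) under L-Glu and SA at 6, 12, 24 and 48 h (columns), as log2(value + 1) of treatment minus urea, blue for lower and red for higher, with a black dot where limma called the gene. Under L-Glu 1, 44, 49 and 49 genes are called lower at the successive times, and under SA 9, 12, 25 and 4, with LHCB4.3 called higher at 48 h.

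Between successive L-Glu times the largest median step was that from 12 to 24 h, also under each other scaling tried. From 6 to 12 h 39 members fell (15.0% of all genes), with a median of -0.82. From 12 to 24 h all 49 fell (19.2% of all genes), with a median of -2.94. From 24 to 48 h 45 fell (23.2% of all genes), with a median of -1.30, and the members not called were LHCB1.1, LHCB2.3, LHCB6 and PSBO2. The first count was 21 without replicate 1 of every group, and the last was 29 with every library scaled to the same total. The median of the first step was -1.61 with quantile normalization and -1.26 with equal library totals, and that of the last was -1.06 and -0.68. Which of these whole steps was the larger thus depends on the scaling. The steps differ in length, and they were not compared per hour. The difference from urea was lower at 48 h than at 6 h for all 49 members (19.1% of all genes), by a median of -3.99, and also without L-Glu 48 h replicate 2.

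Among the 9 genes of the major antenna, which form the trimers that hold most of the chlorophyll of photosystem II, LHCB1.4 (AT2G34430) had the lowest average difference from urea and LHCB2.1 (AT2G05100) the highest. LHCB1.4 measured 3357, 2711 and 2434 in urea at 6 h and 513, 542 and 476 in urea at 48 h. With L-Glu it measured 1949, 1977 and 1601 at 6 h, 863, 1112 and 1652 at 12 h, 43.9, 66.1 and 27.9 at 24 h, and from 4.61 to 13.5 in the libraries of 48 h. It was thus near the floor of the table in L-Glu at 48 h and its difference from urea was -5.64 ± 0.302 on the log2 scale (SE, limma adjusted p = 2.13e-17), and it also had the deepest fall in urea alone, to 16.5% of its mock mean. LHCB2.1 measured 719, 468 and 572 in urea at 48 h and 113, 73.6 and 125 in L-Glu, a difference of -2.50 ± 0.341 (adjusted p = 1.18e-07). The medians of the 9 genes were -0.37, -1.45, -3.62 and -3.84 at 6, 12, 24 and 48 h. At 12 h LHCB1.1 was the 1 gene of the 9 not called (-0.66 ± 0.344, adjusted p = 0.111).

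LHCB1.1 (AT1G29920), LHCB1.2 (AT1G29910) and LHCB1.3 (AT1G29930) lie side by side on chromosome 1, between 10472280 and 10479114 in assembly TAIR10.1, LHCB1.3 on the plus strand and the others on the minus strand. Each is a single exon with 804 coding bases, and their coding sequences are 95.6% to 96.4% identical, so reads may have been divided between them by the counting and the values of any 1 of them are uncertain. Their differences from urea at 48 h were -3.30, -5.00 and -4.38. LHCB2.1 and LHCB2.2 are 92.9% identical and LHCB1.4 and LHCB1.5 92.5%, and the same holds for them, LHCB1.4 as the lowest of the major antenna included.

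In the minor antenna, whose single proteins link the trimers to the photosystem II core, LHCB5 (AT4G10340) was lowest and LHCB4.1 (AT5G01530) highest on average. LHCB5 measured 3602, 3841 and 3700 in urea at 48 h and 209, 98.1 and 196 in L-Glu, a difference of -4.54 ± 0.215 (adjusted p = 8.52e-19). LHCB4.1 measured 2290, 2113 and 2033 in urea and 182, 206 and 207 in L-Glu, a difference of -3.43 ± 0.175 (adjusted p = 5.99e-18). At 12 h LHCB4.1 stood at 3420, 3291 and 3758 in L-Glu against 4779, 4291 and 6500 in urea, or 67.2% of the urea mean. LHCB4.2 (AT3G08940) was then at 972, 689 and 891 against 2790, 1706 and 4011, or 30%. All 5 genes were called lower at 12, 24 and 48 h.

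In the photosystem I antenna, LHCA2 (AT3G61470) and LHCA4 (AT3G47470) were the extremes on average over the times, LHCA2 with LHCA3 (AT1G61520) close to it, at -2.48 each. At 48 h LHCA2 was at -4.27 ± 0.198 and LHCA4 at -3.17 ± 0.261 (adjusted p = 4.9e-19 and 1.46e-12), and LHCA3 was lower, at -4.70 ± 0.205 (adjusted p = 9.95e-20). LHCA2 measured 2120, 1816 and 1945 in urea and 112, 71.9 and 126 in L-Glu, and LHCA4 2909, 2754 and 2827 against 370, 220 and 382. LHCA5 and LHCA6 are the rare members of the family, known for joining photosystem I to the plastid NADH dehydrogenase-like complex. LHCA6 (AT1G19150) measured 143, 198 and 184 in L-Glu and 175, 181 and 187 in urea at 6 h, where the groups overlapped, and had a difference of -0.49 ± 0.318 at 12 h (adjusted p = 0.207). It then measured 6.67, 21.5 and 5.18 at 24 h and 1.82, 2.04 and 3.88 at 48 h.

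The 12 genes of the photosystem I core were all called lower at 12, 24 and 48 h. PSAN (AT5G64040), a subunit on the lumen side, had the lowest difference from urea of all 49 genes at 48 h, at -5.94 ± 0.251 (adjusted p = 4.65e-20). It measured 33.2, 22.1 and 46.5 in L-Glu against 1792, 2359 and 2043 in urea, which is 1.64% of the urea mean. FNR2, LHCB1.4 and PSBW were close, at -5.67 ± 0.255, -5.64 ± 0.302 and -5.55 ± 0.188, and their order was not tested. At 12 h PSAN was still at 1811, 1815 and 1952, against 5077, 3730 and 4796 in urea. PSAE1 (AT4G28750), a stromal subunit near the ferredoxin docking site, was the lowest member at 12 h, at 22.1% of urea. PSAH1 (AT3G16140), one of the subunits at the docking site of mobile antenna, kept most, with 34.4, 20.3 and 60.6 in L-Glu against 216, 179 and 192 in urea at 48 h, which is 19.6% of the urea mean (-2.45 ± 0.227, adjusted p = 2.69e-11). Even for this gene the L-Glu and urea replicates did not overlap.

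Among the 10 photosystem II genes, the small membrane subunit gene PSBW (AT2G30570) had the lowest average and PSBS (AT1G44575) the highest. PSBW measured 3403, 3180 and 3516 in urea at 48 h and 67.8, 55.3 and 94.8 in L-Glu (-5.55 ± 0.188, adjusted p = 1.78e-22). PSBS, which senses lumen acidity and switches the antenna to heat dissipation, was late: it measured 1809, 1562 and 1662 in L-Glu at 12 h against 2117, 1871 and 2147 in urea, and was not called (-0.29 ± 0.176, adjusted p = 0.184). It then measured 261, 415 and 181 at 24 h and 50.5, 34.3 and 35.6 at 48 h, a further difference of -2.74 ± 0.176 between these times (adjusted p = 1.41e-13). PSBO2 (AT3G50820), one of the copies of the manganese-stabilising protein of the oxygen-evolving complex, was the 1 member called at 6 h (-0.51 ± 0.147, adjusted p = 0.0193), at 70.5% of urea, when other members with a larger SE stood lower, such as LHCB1.4 at 65%. It was at 47.6% of urea at 12 h, above the median member, had the lowest share of its urea level of the 49 at 24 h (61.3, 50.8 and 42.5 against 2061, 2654 and 2080 in urea, or 2.28%), and was not called between 24 and 48 h (-0.29 ± 0.147, adjusted p = 0.125).

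Of the electron carriers, PETC (AT4G03280), the Rieske protein of the cytochrome b6f complex, measured 81.7, 53.5 and 49.6 in L-Glu at 48 h against 2454, 2308 and 2484 in urea (-5.30 ± 0.17, adjusted p = 5.46e-23). While PSAH1 kept more of its urea level at 24 and 48 h, the minor plastocyanin gene PETE1 (AT1G76100) was the slowest of the 49 at 6 and 12 h. It measured 233, 201 and 192 in L-Glu and 167, 171 and 201 in urea at 6 h, the highest ratio of the set at 116%, and 151, 139 and 139 against 202, 92 and 179 at 12 h, where the groups overlapped and it was not called (-0.06 ± 0.218, adjusted p = 0.832). By 48 h it was at 10, 5.49 and 10.4 against 80.3, 80.2 and 65.4. FNR2 (AT1G20020) was also not called at 12 h (-0.53 ± 0.255, adjusted p = 0.0878), stood at 389, 708 and 197 at 24 h, and then had the largest fall of the 49 from 24 to 48 h, to 30.8, 45.7 and 44.9 (-3.22 ± 0.255, adjusted p = 1.36e-11). FNR1 (AT5G66190) was already at 97.9, 93.8 and 75.3 at 24 h and at 63.8 ± 15.6 (SD, n = 3) at 48 h. ATPD (AT4G09650), the delta subunit of ATP synthase, was at 2026, 2074 and 1705 against 2067, 1796 and 1964 in urea at 6 h, where the groups overlapped, and at 55.1, 22.1 and 31 against 883, 817 and 887 at 48 h.

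**Figure D3:**
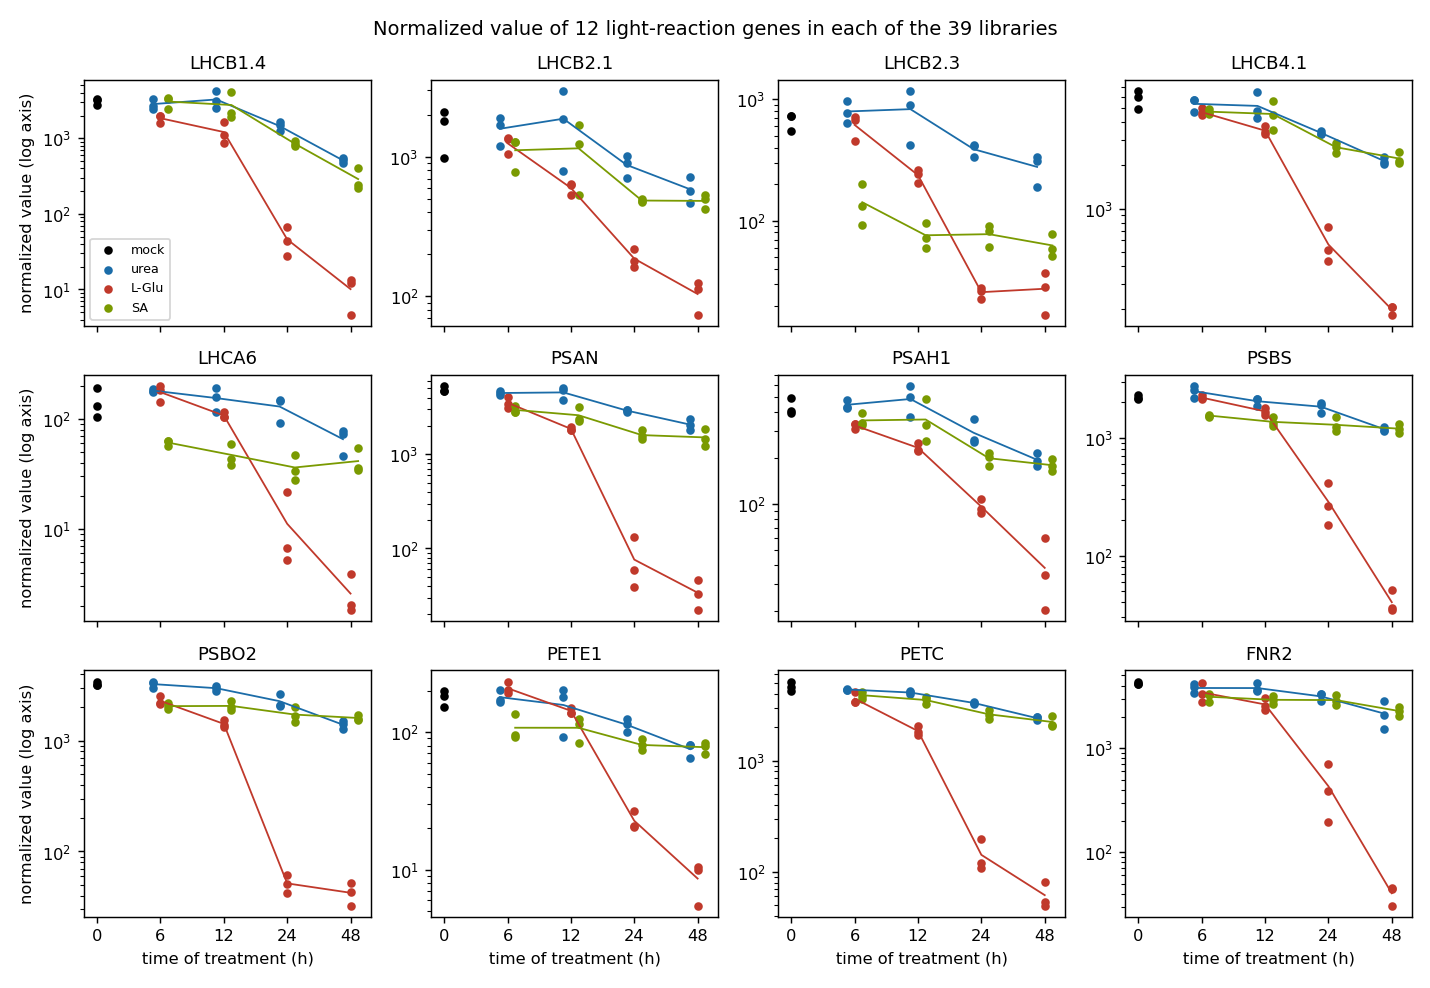
Normalized value (log axis) of 12 genes in every library against hours of treatment, black for mock, blue for urea, red for L-Glu and green for SA, with lines through the means of 3 libraries. L-Glu values lie below urea at 24 and 48 h in each panel. Several are already lower at 12 h, such as LHCB2.3 and LHCB2.1 at 28.6% and 31.8% of urea, while PETE1 and PSBS are still near urea. LHCB2.3 and LHCA6 are low in SA from 6 h.

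SA against urea gave an uneven change, in the median smaller than that of L-Glu from 12 h on but not at 6 h. The median difference at 6 h was -0.37, against -0.31 for L-Glu. Every SA replicate lay below every urea replicate for 36 members at 6 h, 12 at 12 h, 43 at 24 h and 17 at 48 h. The same held for 23.3%, 23.5%, 24.0% and 21.2% of all genes. At 48 h 3 members had every SA replicate above urea. A median member stood at 76.8% of urea at 6 h, 72.7% at 12 h, 64.1% at 24 h and 84.3% at 48 h, and the 3 lowest members at 6, 12 and 24 h were LHCB2.3, LHCA6 and LHCB2.2, the first and the last of which were singled out after their values were seen. Called lower were 9 members at 6 h (18.4%, against 13.5% of all genes), 12 at 12 h (24.5% against 15.6%), 25 at 24 h (51% against 15.5%) and 4 at 48 h (8.16% against 14.9%). At 48 h 1 member was called higher (13.5% of all genes were). The counts also depend on the scaling and the fit: quantile normalization gave 14, 21, 40 and 19 at the successive times, equal library totals gave 12 at 48 h, and a fit of the compared groups alone gave 26 at 6 h and 10 at 48 h. Averaged over the times 40 members were lower and none higher (29.2% of all genes were lower), with a median of -0.44. These counts depend on single libraries. At 12 h 5, 29 and 6 were called without urea replicate 1, 2 and 3, and 5 and 29 without SA replicate 2 and 3. At 24 h 11 were called without urea replicate 3 and 10 without SA replicate 1. At 48 h 2 and 1 were called without urea replicate 1 and 2, and 1 without SA replicate 1 or 3. Without replicate 1 of every group 4 were called at 12 h, 4 at 24 h and 25 on average over the times.

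By role, the SA difference averaged over the times was called for 8 of 9 major antenna genes, 3 of 5 minor antenna genes, 5 of 6 LHCA genes, all 12 photosystem I core genes, 9 of 10 photosystem II genes and all 3 electron carriers, and for 0 of 4 genes of ATP synthase and ferredoxin-NADP reductase, whose median was -0.10. Whether the last subgroup differs from the others was not tested. At a given time, PSBQ2, LHCB2.2 and LHCB2.3 were called lower at all 4 times. LHCB4.3 (AT2G40100), a member of the minor antenna expressed less than its relatives, was the 1 gene called higher, at 48 h, with 299, 302 and 244 in SA against 159, 199 and 158 in urea (0.71 ± 0.235, adjusted p = 0.0212). At 6 h its difference was -0.58 ± 0.235 and was not called (adjusted p = 0.0594). The call at 48 h was lost without urea replicate 1 or 3 or SA replicate 1 or 2, and under 2 other scalings, quantile normalization and equal library totals.

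LHCB2.3 (AT3G27690) was the lowest member under SA at every time. It measured 632, 971 and 771 in urea at 6 h and 91.7, 202 and 132 in SA, which is 18% of the urea mean (-2.52 ± 0.298, adjusted p = 4.43e-08). At 12 h it measured 71.6, 60 and 96 in SA against 898, 416 and 1168 in urea, or 9.17% (-3.33 ± 0.298, adjusted p = 1.2e-10), and at 48 h 51.3, 78 and 58.5 against 334, 308 and 189, or 22.6%. The SA libraries were below all urea libraries at each of these times. Its near relatives moved less: LHCB2.2 (AT2G05070) was at -1.04 ± 0.365 at 12 h (adjusted p = 0.0275), and LHCB2.1 at -0.66 ± 0.341, which was not called (adjusted p = 0.138). LHCA6 was at -1.55 ± 0.318 at 6 h (adjusted p = 0.000281), with 63.1, 62.7 and 56.9 in SA against 175, 181 and 187 in urea, and at -1.81 ± 0.318 at 24 h (adjusted p = 3.38e-05), but at 48 h it was not called (-0.65 ± 0.318, adjusted p = 0.132).

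In L-Glu against SA, 4 members were higher in L-Glu at 6 h (17.4% of all genes were), namely LHCB2.3, LHCA6, PSBS and PETE1, and none was lower. After quantile normalization 8 were higher and 1 was lower. LHCB2.3 measured 714, 451 and 675 in L-Glu at 6 h, above every SA library (2.15 ± 0.298, adjusted p = 8.88e-07). At 12 h 29 were lower (23.3% of all genes), and 2 were higher (29.1% of all genes), LHCB2.3 and LHCA6. At 24 h all 49 were lower in L-Glu (30.8% of all genes), and at 48 h all 49 (29.6% of all genes), with medians of -2.90 and -4.03. The doses of L-Glu and SA differ, and these comparisons share their L-Glu and SA libraries with those against urea. Without replicate 1 of every group 2 members were higher at 6 h.

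The 250 bases upstream of the annotated start of the 3 LHCB2 genes are shown because LHCB2.3 stood apart from its relatives under SA. They were read from assembly TAIR10.1 by locus, on the strand of the gene, and capitals mark the motifs searched on both strands, namely the G-box, the I-box, the GLK motif and the GT1 element.
LHCB2.1 (chr2:1824481-1824730, minus strand): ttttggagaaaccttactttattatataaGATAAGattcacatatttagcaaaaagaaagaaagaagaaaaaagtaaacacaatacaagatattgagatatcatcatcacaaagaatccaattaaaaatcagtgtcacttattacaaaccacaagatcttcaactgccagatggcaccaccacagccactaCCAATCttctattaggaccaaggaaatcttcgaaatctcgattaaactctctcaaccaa
LHCB2.2 (chr2:1800473-1800722, minus strand): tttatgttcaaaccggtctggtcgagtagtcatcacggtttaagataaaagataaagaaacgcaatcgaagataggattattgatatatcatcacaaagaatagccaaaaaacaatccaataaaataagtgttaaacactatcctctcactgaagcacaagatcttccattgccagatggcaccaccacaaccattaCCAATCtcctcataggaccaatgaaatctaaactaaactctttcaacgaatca
LHCB2.3 (chr3:10255656-10255905, plus strand): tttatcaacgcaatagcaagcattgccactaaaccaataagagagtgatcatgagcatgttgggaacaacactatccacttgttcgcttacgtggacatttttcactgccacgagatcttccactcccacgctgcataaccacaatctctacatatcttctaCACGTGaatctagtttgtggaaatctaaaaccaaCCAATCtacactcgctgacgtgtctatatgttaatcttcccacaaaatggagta
The GLK motif lies at -59, -53 and -54 from the start in the 3 genes in that order, and LHCB2.3 alone of them has a G-box, at -88, while LHCB2.1 has an I-box at -221. Their coding sequences are 92.9% identical between LHCB2.1 and LHCB2.2, and 84.5% and 84.7% identical between LHCB2.3 and these. LHCA6, also low under SA, matches none of the motifs. Of the other members with a G-box, LHCB4.1, LHCA4 and ATPD were not called in SA against urea averaged over the times. LHCB6, PSAE2, PSAH2, PSBQ1 and PSBQ2 were called lower there. Whether the motifs go with the SA difference was not tested.

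Over all members, the 250-base window held the G-box (letters CACGTG) in 9 of 49 genes, or 18.4%. It was in 7.33% of 19504 such windows, those of the nuclear protein-coding genes that have values here. The I-box, spelled GATAAG, was in 12 members and in 2389 of the 19504 windows. The motif bound by GLK factors, spelled CCAATC, was in 14 members, or 28.6%, against 10.4%, and the GT1 element, spelled GGTTAA, was in 6 members against 15.2% of windows. The GLK motif was in 5 of 9 major antenna genes and 0 of 12 photosystem I core genes. At least 1 of the 4 motifs was in 24 members, or 49%, against 37.9%. These are matches of letters, given as a description.

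Several subunits are encoded by paralogs, and 10 pairs were compared for whether L-Glu moved both genes alike. For each pair the log2 ratio of the first to the second gene was compared between L-Glu and urea over the 4 times, with an exact two-sided permutation test within times (smallest possible p = 1.25e-05), adjusted over the 10 pairs. The ratio changed in 7 of them. PSAE1 lost more than PSAE2, PSAD1 more than PSAD2, PSAH2 more than PSAH1, PSBO2 more than PSBO1, PSBQ2 more than PSBQ1, PETE2 more than PETE1 and LHCB4.2 more than LHCB4.1. The change was -1.04 for PSAE1 to PSAE2 (exact permutation, adjusted p = 0.000562), -0.44 for PSAD1 to PSAD2 (0.00455), 0.81 for PSAH1 to PSAH2 (0.00571), 0.71 for PSBO1 to PSBO2 (0.00571), 0.39 for PSBQ1 to PSBQ2 (0.00455), 0.74 for PETE1 to PETE2 (0.0005) and 0.60 for LHCB4.1 to LHCB4.2 (0.00125). For LHCB4.1 to LHCB4.3 it was 0.13, for LHCA5 to LHCA6 0.24 and for FNR1 to FNR2 -0.18, with exact permutation p adjusted to 0.505, 0.348 and 0.505. The calls for PSAD, PSAH and PSBO were lost without 24 h and without 48 h, and the call for PSBQ without 12 h, the changes being then -0.25 and -0.36 for PSAD, 0.65 and 0.39 for PSAH, 0.25 and 0.67 for PSBO, and 0.19 for PSBQ. Those for LHCB4.1 to LHCB4.2, PSAE and PETE were kept when any time or replicate number was left out.

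The times at which paralogs parted differed. PSAE1 was the more abundant gene in urea, with a ratio of 2.28 ± 0.17 on the log2 scale at 6 h (SD, n = 3) and 1.91 ± 0.04 at 24 h. In L-Glu at 24 h the ratio was -0.12 ± 0.54, so both were then near one level, at 33.5, 50.9 and 48 for PSAE1 and 47.5, 65.8 and 33.5 for PSAE2 (AT2G20260). At 48 h replicates spread widely, with a ratio of 0.99 ± 0.99. For PSBO1 (AT5G66570) and PSBO2 the ratio in L-Glu was 1.77 ± 0.10 at 12 h, as in urea (1.85 ± 0.12), then 3.73 ± 0.26 against 1.66 ± 0.12 at 24 h. At that time PSBO1 kept 686, 814 and 587 in L-Glu. For PSAH1 and PSAH2 (AT1G52230) the ratio in urea was near -0.51 at 48 h, PSAH2 being the higher, and in L-Glu it was 1.56 ± 0.75 with PSAH1 the higher. PSAH2 measured 6.57, 5.47 and 35.8 there. For PSBQ1 and PSBQ2 the ratios parted at 12 h, at 1.02 ± 0.12 in L-Glu and 0.03 ± 0.32 in urea, and met again at 48 h, at 0.02 ± 0.04 and 0.01 ± 0.12. FNR1 to FNR2 crossed over, with a difference of -1.51 at 24 h and 1.22 at 48 h, which cancel in the average, and without 48 h the pair was called at -0.65 (exact permutation, adjusted p = 0.0065), while without 24 h it was at 0.26 and not called. Within these pairs coding identity was 59.2% to 88%.

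**Figure D4:**
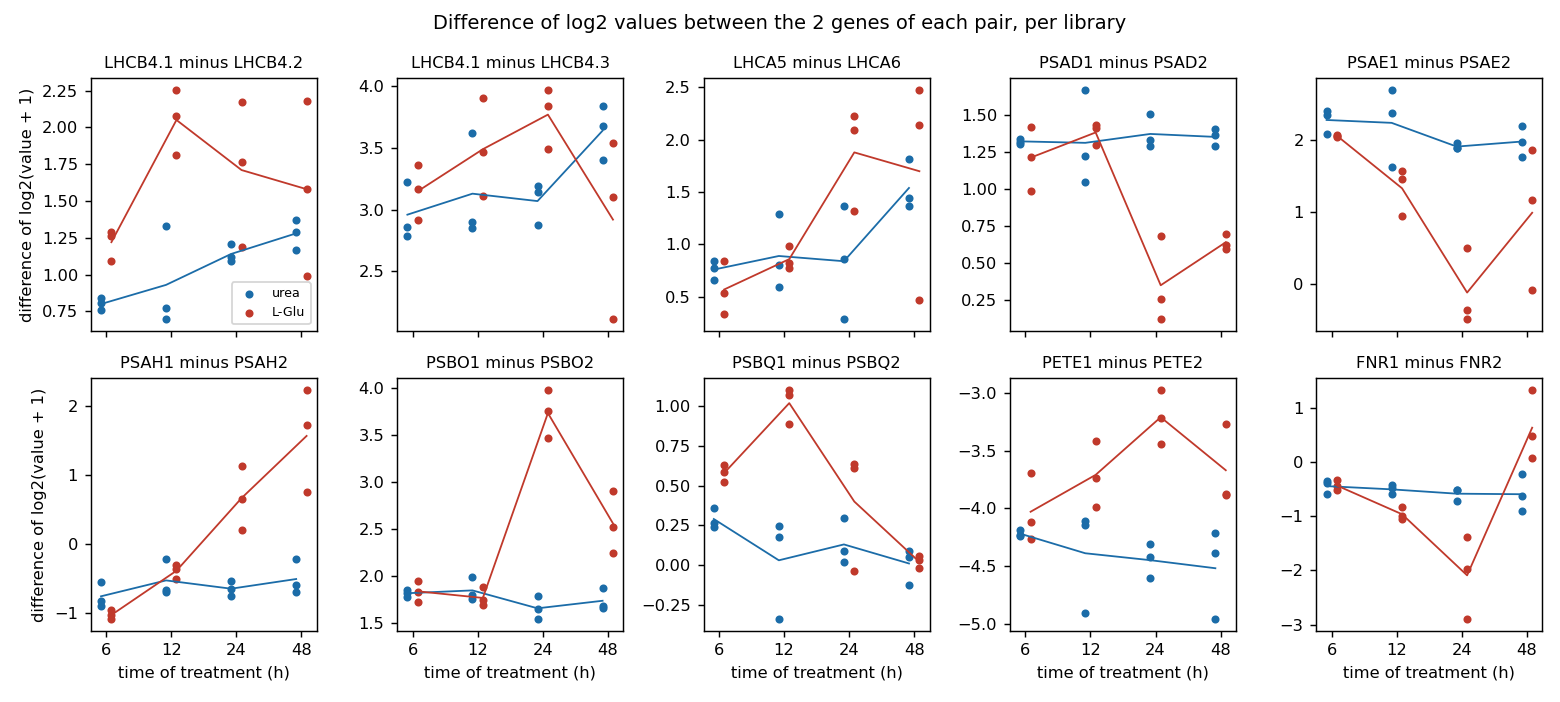
Difference of log2(value + 1) between the genes of each of the 10 pairs against hours of treatment, with 3 libraries per group as points and lines through the means, blue for urea and red for L-Glu. PSAE1 minus PSAE2 falls to -0.12 in L-Glu at 24 h against 1.91 in urea, PSBO1 minus PSBO2 rises to 3.73 against 1.66, and FNR1 minus FNR2 lies below urea at 24 h and above it at 48 h.

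The same upstream windows are shown for the pair with the largest change of ratio, PSAE1 and PSAE2, and for LHCB1.4 and LHCB4.1 as antenna genes that kept little and more of their level under L-Glu, capitals marking the motifs as before.
PSAE1 (chr4:14204062-14204311, minus strand): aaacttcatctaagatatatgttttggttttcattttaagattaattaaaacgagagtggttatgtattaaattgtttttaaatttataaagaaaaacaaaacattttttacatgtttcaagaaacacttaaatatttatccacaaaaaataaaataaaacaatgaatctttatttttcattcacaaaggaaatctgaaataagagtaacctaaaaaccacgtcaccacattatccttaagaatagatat
PSAE2 (chr2:8736484-8736733, plus strand): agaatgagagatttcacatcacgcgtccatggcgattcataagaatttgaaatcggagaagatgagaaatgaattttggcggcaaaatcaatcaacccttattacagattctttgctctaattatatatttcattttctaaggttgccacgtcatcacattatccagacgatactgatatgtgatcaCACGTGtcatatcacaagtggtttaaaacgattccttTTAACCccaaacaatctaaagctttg
LHCB1.4 (chr2:14524357-14524606, plus strand): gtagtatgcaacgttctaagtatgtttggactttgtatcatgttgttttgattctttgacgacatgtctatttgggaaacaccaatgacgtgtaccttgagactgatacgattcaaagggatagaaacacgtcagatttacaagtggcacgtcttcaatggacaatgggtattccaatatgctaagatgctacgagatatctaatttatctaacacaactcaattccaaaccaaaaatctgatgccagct
LHCB4.1 (chr5:208616-208865, plus strand): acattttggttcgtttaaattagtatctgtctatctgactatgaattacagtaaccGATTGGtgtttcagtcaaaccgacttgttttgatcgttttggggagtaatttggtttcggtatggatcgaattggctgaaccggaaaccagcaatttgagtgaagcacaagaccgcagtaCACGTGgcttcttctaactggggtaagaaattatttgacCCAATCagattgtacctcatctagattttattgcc
None of the 4 motifs was matched in the windows of PSAE1 and LHCB1.4. The window of PSAE2 holds a G-box at -63 and a GT1 element at -26. That of LHCB4.1 holds a G-box at -74 and the GLK motif in 2 places. Other members differ from this picture. PETE1 and PSAH1 also match none of the 4 motifs, and their average L-Glu differences from urea were -1.29 and -1.38. Those of PSAE1 and LHCB1.4 were -3.23 and -3.18. PETC has an I-box and the GLK motif and was at -2.83. Whether the motifs go with the size of the fall was not tested.

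Urea seedlings also lost these transcripts with time. Urea at 6 h differed from mock at 0 h in 0 of the 49 members (0.545% of all genes were lower), with a median of -0.04, and no member was called higher. Between 6 and 48 h of urea 47 members fell (8.51% of all genes), with a median of -1.25, the exceptions being PSAE2 and PSBR. A median member stood at 42.2% of mock in urea at 48 h, at 35.4% in SA and at 2.11% in L-Glu. In mock, levels per kilobase of transcript ran from 12505 ± 1580 for LHCB1.5 (AT2G34420; SD, n = 3) to 122 ± 39.8 for LHCA6. LHCB1.3, LHCB5 and PSBO1 followed LHCB1.5 at 8643 ± 2076, 8142 ± 1051 and 7944 ± 1105 per kilobase and did not differ beyond their spread. The next lowest in mock were PETE1 at 170 ± 23.6, LHCA5 at 323 ± 23.7 and PSAH1 at 334 ± 42.1 per kilobase.

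Other genes of the chloroplast were counted in L-Glu against urea at 48 h, when 27.6% of all genes were lower and 25.2% higher. Of 22 further light-reaction genes 20 were lower and none higher, with a median of -3.34. The b6f subunit gene PETM (AT2G26500) was at -4.46 ± 0.278 (adjusted p = 1.16e-15) and the PSBP-like gene PPL2 at -4.87 ± 0.216. Those not called were PSBP2 (mean values of 4.58 ± 1.19 with L-Glu and 1.95 ± 1.79 with urea, SD, n = 3, limma adjusted p = 0.0882) and ATPC2 (-0.20 ± 0.296, adjusted p = 0.587). Of 17 Calvin cycle genes, which fix the carbon dioxide with the ATP and NADPH made, all 17 were lower, with a median of -5.34 and the Rubisco subunit gene RBCS2B and the aldolase gene FBA1 lowest on average over the times. Of 15 chlorophyll synthesis genes 14 were lower, with a median of -2.64. The exception was HEMA2 (AT1G09940), a glutamyl-tRNA reductase gene at the first step of the pathway known for expression outside green tissue, which was higher by 3.23 ± 0.186 (adjusted p = 1.55e-16), while HEMA1 (AT1G58290), the main gene for this step in leaves, was at -1.01 ± 0.155. Of 8 genes related to the antenna but linked to stress or assembly 7 were lower, with a median of -2.57, and the early light-induced ELIP1 was not called (-0.70 ± 0.324, adjusted p = 0.0688).

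**Figure D5:**
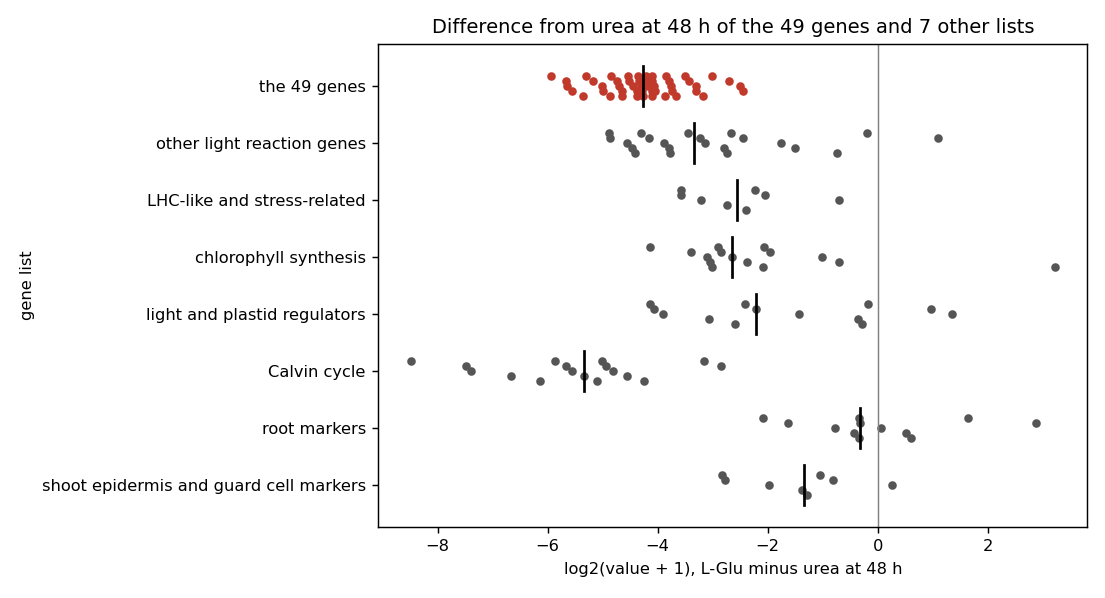
Difference of L-Glu from urea at 48 h, as log2(value + 1), for the 49 genes (red) and the genes of 7 other lists (grey), 1 point per gene with a black line at each median. The median of the 49 genes is -4.27, that of the Calvin cycle genes -5.34 and that of the root markers -0.32.

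Among 13 regulators of light response and plastid development, 8 were lower at 48 h and 2 higher, with a median of -2.21. GLK1 and GLK2, activators of the antenna genes, were at -3.06 ± 0.32 and -4.07 ± 0.296 (adjusted p = 4.17e-10 and 6.93e-14), and the GATA factor gene CGA1 was at -3.90 ± 0.422. HY5, a central activator of light-regulated genes, was at -0.28 ± 0.229 and was not called (adjusted p = 0.311). The clock genes CCA1 and LHY were higher, by 1.36 ± 0.246 and 0.97 ± 0.21 (adjusted p = 1.58e-05 and 0.000209). At 12 h, when 44 of the 49 members were lower, 4 of the 13 regulators were lower, or 30.8%, against 21.9% of all genes, and none was higher.

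Markers of other tissues moved as well. Of 12 root markers 2 were lower and 2 higher in L-Glu at 48 h, with a median of -0.32, and their summed value was 16369 to 20862 against 2540 to 3214 in urea. Most of that sum is PYK10 (AT3G09260), an abundant root beta-glucosidase gene, with a mean of 18216 against 2482, and WER, a root epidermis gene, was listed at 0 in 1 library of that L-Glu group. In SA against urea 6 of the 12 root markers were lower at 6 h, when 13.5% of all genes were lower. At 48 h 10 of them were lower, when 14.9% of all genes were lower and 13.5% higher. No root marker was higher at either time. Their sum was 953 to 1370 in SA and 3646 to 4734 in urea at 6 h, and 1620 to 1842 in SA at 48 h, most of it PYK10 here too, with means in SA of 905 and 1528. At 48 h EXP7, a root hair expansin gene, was listed at 0 in all 3 SA libraries, while SHR and SCR, regulators of the inner root tissues, were not called, at 0.09 ± 0.267 and 0.09 ± 0.185 (adjusted p = 0.835 and 0.773). Of 8 shoot epidermis and guard cell markers 7 were lower in L-Glu at 48 h and none higher, with a median of -1.33 and a sum of 365 to 670 against 1295 to 1367. FAMA had means of 103 ± 9.06 with L-Glu and 85.8 ± 4.87 with urea at that time (SD, n = 3). Averaged over the times, PDF2 and FDH were lowest, at -1.63 and -1.12, and FAMA and GC1 highest, at -0.03 and 0.30. At 24 h GC1 was at 319 ± 133 with L-Glu and 126 ± 32.5 with urea. None of these 8 was listed at 0 in any library. The mitochondrial genes of the table held 0.249% to 0.541% of all values in the L-Glu libraries of 48 h and 0.0480% to 0.0919% in those of urea. The part of tissue composition in the differences of the light-reaction transcripts was not tested.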

How the data were processed

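RNA was sequenced from whole seedlings, 13 groups of 3 libraries, with groups and replicate numbers taken from the sample titles. The authors deposited a single matrix of normalized signal values with 20001 genes. Per the submitters' processing notes, the build was TAIR10 and the tools, listed without roles, were HTSeq 0.6.0, TopHat2 2.1.0 and edgeR 3.22.3. The sources used here do not give the scaling of the values or whether counting used strand. Whole reads could not be recovered, so depth and the precision it gives are unknown and no count test was run.

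All 39 value columns were matched to samples. Values were compared as log2(value + 1), which understates the folds of low genes. A filter that required 3 libraries at 1 or more removed no member. The 39 libraries were modelled together with limma 3.58.1 (R 4.3.3) as 13 group means, with an intensity trend and 26 residual degrees of freedom. The spread of a gene is shared by all groups, and groups outside a comparison thus enter its p-value. The Benjamini-Hochberg adjustment ran over all genes, with calls below 0.05. The script was tested on simulated data. Pairs of paralogs were tested by exact permutation within times, adjusted over 10 pairs. No replicate block was used, since the labels tie the numbers to no shared culture or day. Alternatives were other pseudocounts, filters and scalings, no trend, a replicate block, the groups of a comparison alone, and leaving out replicates, libraries and times.

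Gene models, coordinates and upstream sequences come from assembly TAIR10.1 of RefSeq, looked up by locus identifier. The windows of 250 bases end at the base before the annotated gene start. Values per kilobase use the annotated transcript length. The members and gene lists were chosen with earlier results of these data known, and no list was tested as a set. Named members are the lowest and highest of each subgroup by the average L-Glu difference from urea, both genes of each pair, the neighbouring LHCB1 genes and members called higher. From each list the 2 lowest and 2 highest genes were picked by the same average, and not all of these are named. Members and list genes named beside these were chosen after their values were seen.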

Additional observations from a re-analysis of the deposited data

Results flagged for a closer look

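The difference between L-Glu and urea was itself different at 48 h and at 6 h. In a limma test of that change, all 49 light-reaction genes had a lower difference at 48 h, with a median change of -3.99 on the log2 scale. No member was called in the opposite direction.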

How the results depend on the processing

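The counts of 49 members lower in L-Glu against urea at 24 h, at 48 h and over the times stayed at 49 under every alternative run. At 6 h, 1 member lower became 2 with a pseudocount of 0.25, 2 without an intensity trend, 5 with the groups fitted alone, 0 after quantile normalization and 0 to 2 when replicates or libraries were left out. With SA against urea, quantile normalization gave 14, 21, 40 and 19 at 6, 12, 24 and 48 h, the groups alone gave 26 at 6 h, 40 at 24 h and 10 at 48 h, and the same total gave 23 at 12 h and 12 at 48 h. Leaving out replicates or libraries gave 4 to 29 at 12 h, 4 to 25 at 24 h, 1 to 7 at 48 h and 25 to 42 over the times. Members higher in L-Glu than in SA at 6 h were 8 after quantile normalization and 2 to 4 with libraries left out. From 6 to 12 h of L-Glu the count was 21 to 38 with libraries left out, and from 24 to 48 h it was 29 at the same total. The cause of these shifts was not tested.

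Deviations from the group means of same-numbered libraries of 1 time had correlations of -0.074 to 0.143 across genes, with 33 of 36 above 0 and 5 over 0.1. The own number correlated best in 52 of 72 cases, each a choice among 3 libraries. That is more often than an even choice would give, so the numbers appear to share something, though the correlations are small. What they share was not tested. With a replicate block, members lower in L-Glu at 6 h were 2, those lower in SA were 13, 17, 30 and 6 at the successive times, and no count but the first moved by over 1.5 times.

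For PSBS in L-Glu against SA at 12 h the difference turned to -0.38 after quantile normalization. For the average L-Glu difference from urea, quantile normalization turned HEMA1 (AT1G58290) to -0.55 and LHY (AT1G01060) to -0.10, while libraries of equal total put HEMA1 at -0.49, LHY at -0.14 and ATPC2 (AT1G15700) at -0.42. Among pairs, leaving out replicates gave -0.49 to -0.40 for PSAD1 to PSAD2, 0.69 to 0.88 for PSAH1 to PSAH2, 0.67 to 0.77 for PSBO1 to PSBO2 and 0.38 to 0.41 for PSBQ1 to PSBQ2. Without 12 h PSBQ was at 0.19. Without 24 h PSAD was at -0.25, PSAH at 0.65 and PSBO at 0.25. Without 48 h PSAD was at -0.36, PSAH at 0.39, PSBO at 0.67, LHCB4.1 to LHCB4.3 at 0.42 and FNR at -0.65. Fewer arrangements are left in these tests. Depth is unknown, so what it limits could not be judged.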
